A study of Sus scrofa with 6 samples.

Results

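ssc-miR-122, ssc-miR-192, ssc-miR-194a and ssc-miR-215 are 4 miRNAs best known from liver, intestine and kidney, and they were read here as a check for RNA from outside the skin. They were chosen by name, but with earlier results of these data known. They make up 4 of the 898 miRNAs listed, of which 280 carry a miRBase-style name and the rest a predicted identifier. The libraries are small RNA libraries of skin from Xiang pigs, 3 from white skin (S02, S06 and S07) and 3 from black skin (S03, S04 and S05). All 6 samples had the same handling in the labels: alcohol disinfection, removal of hair and storage in RNAwait at low temperature. The labels give no animal, age, sex or body site and do not tell whether libraries of a colour share an animal. The p-values therefore speak only of the spread between these samples, part or all of which may be technical.

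miRNAs are short RNAs that lower the output of messenger RNAs, and the bases near the 5′ end, the seed, largely decide which messages they bind. miR-122 is the dominant miRNA of hepatocytes, where it bears on cholesterol and lipid metabolism, and it is found in blood plasma, where it is used as a sign of liver damage. miR-192 and miR-215 share a seed and are enriched in intestinal epithelium, kidney and liver. miR-194 is made from hairpins beside each of them and has a seed of its own. None of these miRNAs is a recognised skin marker, and skin epithelium is instead marked by miR-205.

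In Sscrofa11.1 the 5 precursors in question lie at 3 loci, by the RefSeq gene table. MIR122 is on chromosome 1 at 162329776 to 162329860, between the coding genes ALPK2 and NEDD4L and inside no annotated gene. MIR194A is on chromosome 2 at 7285466 to 7285541 and MIR192 at 7285667 to 7285746, 125 bases apart and between ATG2A and EHD1. MIR215 is on chromosome 10 at 9704606 to 9704701 and MIR194B at 9704910 to 9704987, 208 bases apart and both within the span of IARS2. ssc-miR-192 and ssc-miR-194a thus come from neighbouring hairpins, while ssc-miR-215 has ssc-miR-194b as its neighbour.

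The epithelial marker of the labelled tissue was abundant. ssc-miR-205 stood between 11483 RPM (S03) and 22514 RPM (S06), where RPM is the number of reads after each library is scaled to 1e+06 listed miRNA reads. Libraries held 6454685 to 10165949 reads. All 4 liver and gut miRNAs were scarce beside that marker. Summed, they held 0.0143%, 0.0114% and 0.0127% of the reads in S02, S06 and S07 (white), and 0.0142%, 0.0136% and 0.0240% in S03, S04 and S05 (black). The sum was highest in S05, and the other 5 libraries lay close together. ssc-miR-122 made up 50.3% of the sum in S05 and 5.98% to 24.9% in the other 5. ssc-miR-192, ssc-miR-194a and ssc-miR-215 had their highest values in S03, S02 and S07. By mean RPM over the 6 libraries ssc-miR-192 was at place 133 of the 280 named miRNAs, ssc-miR-194a at 153, ssc-miR-122 at 156 and ssc-miR-215 at 178. The place of ssc-miR-122 rested on S05, as shown next. RPM compares reads and is not scaled for length or for ligation efficiency, so the order between miRNAs is only approximate.

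ssc-miR-122, the hepatocyte miRNA, was high in 1 black library and low in the other black libraries. In white skin its level was 21.6 RPM in S02, 28.4 RPM in S06 and 23.6 RPM in S07, from 158, 183 and 240 reads. In the black libraries S03 and S04 it measured 8.52 and 11.6 RPM, from 66 and 85 reads. In the black library S05 it measured 120.7 RPM, from 1044 reads. The exact 95% Poisson intervals of these counts were 6.59 to 10.8 RPM for S03, 9.26 to 14.3 RPM for S04 and 114 to 128 RPM for S05. Such intervals cover counting error alone and not the spread between samples. They are too narrow where PCR copies of a molecule are counted more than once. S05 stood above every white library, while S03 and S04 stood below every white library.

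The group means of ssc-miR-122 were 46.9 ± 63.9 RPM in black skin and 24.5 ± 3.45 RPM in white skin (SD, n = 3 each), and the medians were 11.6 and 23.6 RPM. The mean put black skin higher and the median put it lower. On the log2(RPM + 1) scale the difference, black minus white, was -0.05 with a standard error of 0.81 and a 95% interval of -1.89 to 1.78 (limma, Benjamini-Hochberg adjusted p = 0.973). Without S05 the difference was -1.21 and did not pass the threshold of 0.05 (limma, adjusted p = 0.109), which 1.46% of the 480 miRNAs tested in that fit did. There the unadjusted p was under 0.05, as it was for 15.6% of the 480. S03 and S04 were both below every white library for 19.4% of those 480. edgeR's quasi-likelihood test on the recovered reads gave a difference of 0.87 with all 6 libraries (adjusted p = 0.574), opposite in sign to limma.

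The spread of ssc-miR-122 within black skin was the largest of the 454 tested miRNAs on the log2(RPM + 1) scale. The SD over S03, S04 and S05 was 2.02, against a median of 0.26 over all tested miRNAs, and the highest black library was 14.2-fold above the lowest. Within white skin its SD was 0.19, below the median of 0.35, with a 1.31-fold range. ssc-miR-184 came next in the spread within black skin (SD 1.48), at 7.62, 3.95 and 35.2 RPM in S03, S04 and S05. The erythroid miRNAs ssc-miR-144, ssc-miR-451 and ssc-miR-486 followed among named miRNAs, with SDs of 1.20, 1.13 and 1.04. With S05 left out, the SD of ssc-miR-122 over S03 and S04 was 0.29, at place 189 of 454. With a pseudocount of 0.1 in place of 1 it was 2.08, at place 3, with 2 miRNAs above it.

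**Figure D1:**
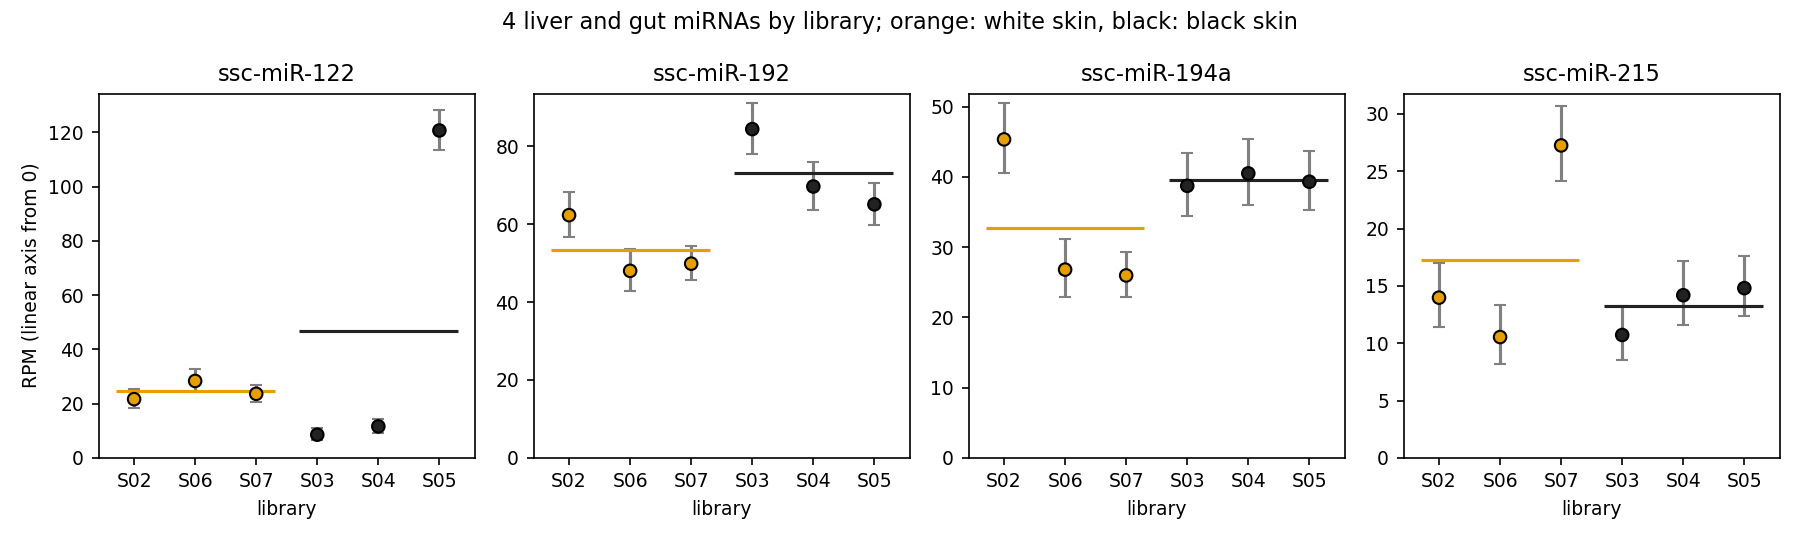
RPM of the 4 miRNAs on the vertical axes (linear, from 0, scaled for each panel) in the 6 libraries on the horizontal axes, with orange points for white and black points for black skin. Grey bars are exact 95% Poisson intervals and horizontal lines are group means. ssc-miR-122 is at 120.7 RPM in S05 and at 8.52 to 28.4 RPM in the other 5 libraries, while ssc-miR-192 is higher in each black library than in each white one.

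ssc-miR-192 was the most abundant of the 4 in 5 of the 6 libraries, S05 being the exception. In white skin it stood at 62.3 RPM in S02, 48.0 RPM in S06 and 49.9 RPM in S07. In black skin it stood at 84.4 RPM in S03, 69.7 RPM in S04 and 65.1 RPM in S05. Each black library was above each white library, although S02 and S05 were within each other's counting intervals (56.7 to 68.3 RPM and 59.8 to 70.7 RPM). A lack of overlap in this direction was found for 13.4% of the 454 tested miRNAs and in either direction for 27.3%.

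The mean of ssc-miR-192 was 73.1 ± 10.1 RPM in black skin, beside 53.4 ± 7.78 RPM in white skin (SD, n = 3), a ratio of 1.37. The difference of 0.45 on the log2(RPM + 1) scale had a standard error of 0.24 and a 95% interval of -0.09 to 0.98, and it did not pass the test (limma, adjusted p = 0.287). The interval leaves room for no difference and for a nearly doubled level. Its spread was similar within both colours, with SDs of 0.20 in white and 0.19 in black skin.

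ssc-miR-194a, from the hairpin beside miR-192, was even across black skin and uneven across white skin. In black skin its level was 38.7 RPM in S03, 40.5 RPM in S04 and 39.3 RPM in S05. In white skin it was 45.3 RPM in S02, and 26.8 and 26.0 RPM in S06 and S07. S02 was thus above every black library and the other white libraries were below every black one, so the groups overlapped. The black libraries differed by 1.05-fold at most, with an SD of 0.03 that stood at place 451 of the 454 tested miRNAs ordered from the widest spread. Their counting intervals were 34.5 to 43.4 RPM in S03, 36.0 to 45.4 RPM in S04 and 35.2 to 43.7 RPM in S05. Each is wider than the range of the 3 values, so this closeness is finer than the counts can resolve. In white skin the range was 1.75-fold.

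The mean of ssc-miR-194a was 39.5 ± 0.903 RPM in black skin, beside 32.7 ± 11.0 RPM in white skin (SD, n = 3). The log2 difference of 0.31 had a standard error of 0.29 and a 95% interval of -0.34 to 0.96 (limma, adjusted p = 0.582). Without S02 it was 0.57 (limma, adjusted p = 0.183). ssc-miR-194b-5p, from the chromosome 10 hairpin, was close to the detection limit, with 18 reads in white and 26 in black skin over 3 libraries each, and it was not tested. Whether reads of both miR-194 copies were assigned apart is not given in the sources used here, so the split between them is uncertain.

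ssc-miR-215 was the scarcest of the 4 by mean. Its white values were 14.0 RPM in S02, 10.5 RPM in S06 and 27.2 RPM in S07, and its black values were 10.7 RPM in S03, 14.2 RPM in S04 and 14.8 RPM in S05. S07 stood apart, with 277 reads and an interval of 24.1 to 30.7 RPM. The other 5 libraries had intervals from 8.18 to 17.6 RPM, so the groups overlapped.

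The mean of ssc-miR-215 was 13.2 ± 2.20 RPM in black skin, beside 17.3 ± 8.83 RPM in white skin (SD, n = 3). The log2 difference of -0.27 had a standard error of 0.38 and a 95% interval of -1.11 to 0.58 (limma, adjusted p = 0.730). Without S07 its sign turned, at 0.10 (limma, adjusted p = 0.889).

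None of the 4 miRNAs was called between the colours (0 of 4 by limma at an adjusted p under 0.05), against 7.05% of the 454 tested. At an unadjusted p under 0.05 there were also 0 of 4, against 25.6% of the 454. edgeR and limma-voom called 0 of 4 each, and DESeq2 called 0 of the 3 for which it gave an adjusted p, with none for ssc-miR-122. The median difference of the 4 was 0.13, beside 0.00 over all tested miRNAs. A missed threshold does not show that the colours have equal levels, and for ssc-miR-122 the interval spans more than 3 log2 units.

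**Figure D2:**
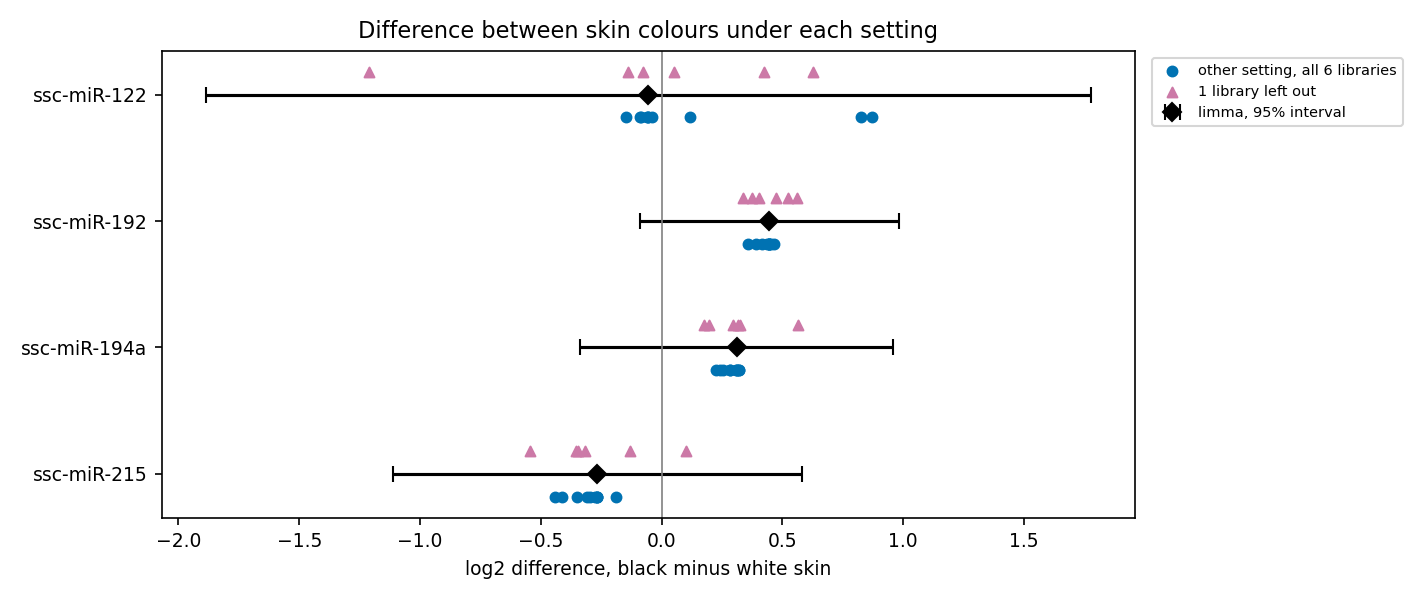
The log2 difference, black minus white skin, on the horizontal axis for each of the 4 miRNAs, with the limma estimate and its 95% interval (diamonds and bars), other settings on all 6 libraries (circles) and fits without 1 library (triangles). Each interval includes 0. ssc-miR-122 ranges from -1.21 to 0.87, while the estimates for ssc-miR-192 and ssc-miR-194a are all above 0.

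Because miR-192 and miR-215 share a seed, the balance between them was compared within libraries. The folds given per library are of RPM, where the scaling cancels, and the log2 ratios tested are of RPM + 1, where it cancels only in part and which lie slightly nearer to 0. ssc-miR-192 was 4.46, 4.56 and 1.83 times as abundant as ssc-miR-215 in S02, S06 and S07, and 7.88, 4.91 and 4.40 times in S03, S04 and S05. ssc-miR-192 was the more abundant partner in all 6 libraries, by the least in S07 and by the most in S03. The log2 ratio of RPM + 1 was 2.38 ± 0.43 in black skin, beside 1.67 ± 0.71 in white skin (SD, n = 3). A two-sided exact permutation test gave p = 0.3, or 0.6 after Benjamini-Hochberg adjustment over 3 ratios.

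The neighbouring miR-192 and miR-194a were compared in the same way. ssc-miR-194a was 0.727, 0.558 and 0.521 times as abundant as ssc-miR-192 in S02, S06 and S07, and 0.459, 0.581 and 0.604 times in S03, S04 and S05. Its log2 ratio was -0.86 ± 0.21 in black skin, beside -0.73 ± 0.25 in white skin (SD, n = 3), with an exact permutation p of 0.6 (adjusted p = 0.6). The log2 ratio of ssc-miR-194a to ssc-miR-215, which come from different loci, was 1.52 ± 0.21 in black skin, beside 0.94 ± 0.89 in white skin (SD, n = 3), with an exact permutation p of 0.4 (adjusted p = 0.6). With 3 against 3 libraries the smallest two-sided p is 0.1, so none of these 3 ratios could have passed.

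**Figure D3:**
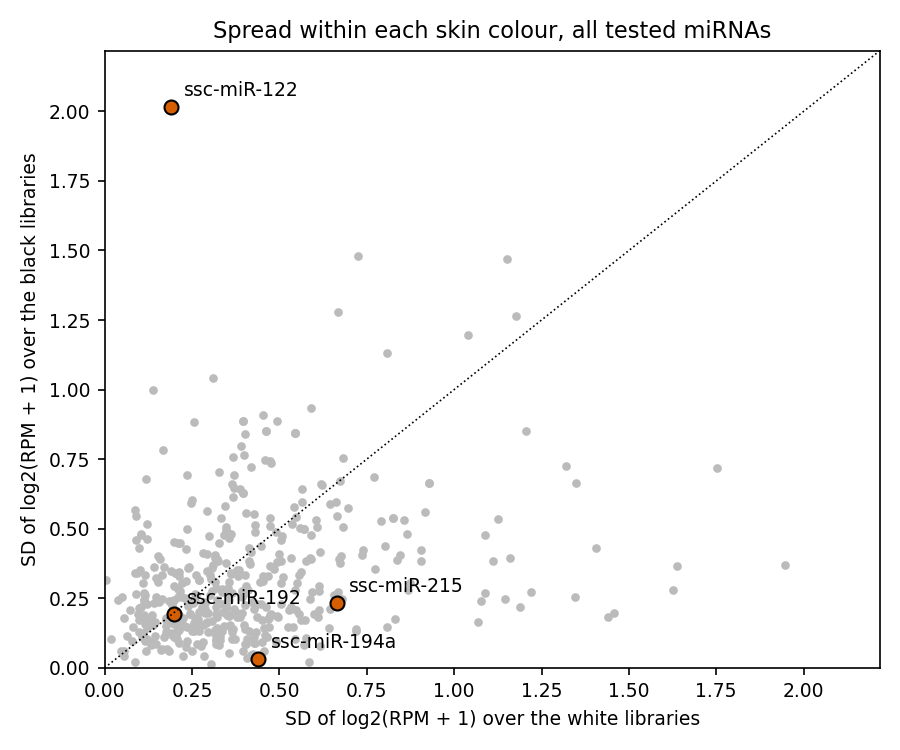
SD of log2(RPM + 1) over the 3 white libraries (horizontal axis) and the 3 black libraries (vertical axis) for the 454 tested miRNAs, with the 4 liver and gut miRNAs in orange and a dotted line where both are equal. ssc-miR-122 lies at the top of the plot (0.19 in white, 2.02 in black skin), ssc-miR-194a near the bottom (0.44 and 0.03) and ssc-miR-215 to the right of the line (0.66 and 0.23).

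Other miRNAs of liver, gut and pancreas gave no called difference. The list has 9 names, of which miR-802, miR-483 and miR-375 matched no row, and 0 of its 6 tested rows were called in either direction by limma, edgeR, DESeq2 or limma-voom (1 of 6 at an unadjusted limma p under 0.05; median difference 0.22, beside 0.00 over all tested). Over the 454 tested, limma called 7.05% and 25.6% were under 0.05 unadjusted, so these counts are near the background. miR-885, a liver miRNA, was close to the limit of 3 reads: ssc-miR-885-5p had 0.137 to 0.465 RPM in the 6 libraries, including 0.463 RPM in S05. The pancreatic ssc-miR-217 measured 3.10 to 3.93 RPM in white and 3.68 to 5.09 RPM in black skin, and S05 had its highest value. ssc-miR-216, also pancreatic, was listed at 0 in the 3 white libraries and at 0.273 to 0.516 RPM in the black ones, where 3 reads are worth 0.347 to 0.409 RPM. The abundant rows of this list, ssc-miR-30a-5p and ssc-miR-378, are made in many tissues and gave 0.19 (adjusted p = 0.645) and -0.59 (adjusted p = 0.255). ssc-miR-31, known from gut and also from keratinocytes, gave 1.52 (limma, adjusted p = 0.119). Without S07 it gave 2.15 (limma, adjusted p = 0.0255), in a fit that called 14 of 481. S07 is its highest white library, so leaving it out raises the difference. With any other library left out it was not called (limma, adjusted p from 0.134 to 0.312).

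The summed blood-cell miRNAs also had their highest black value in S05. The 4 erythroid miRNAs (ssc-miR-451, ssc-miR-144, ssc-miR-486 and ssc-miR-16) summed to 1432 RPM in S03, 1723 RPM in S04 and 5058 RPM in S05, all black, and to 4570 RPM in S02, 2282 RPM in S06 and 5645 RPM in S07, all white. The sum is mostly ssc-miR-451, at 4248 RPM in S05, and its members differed. ssc-miR-144 was high in S05 alone, as ssc-miR-122 was, at 21.2 RPM against 6.49 RPM or less elsewhere. ssc-miR-16 also had its highest value in S05 (760.3 RPM, against 730.9 RPM in S07). ssc-miR-486 stood at 28.9 RPM in S05, above S03 and S04 (7.49 and 7.64 RPM) but below every white library (34.4 to 52.0 RPM). The white libraries S02 and S07, with erythroid sums near that of S05, had 21.6 and 23.6 RPM of ssc-miR-122. No erythroid miRNA was called with all libraries (0 of 4, limma; median difference -0.55; 1 of 4 at an unadjusted p under 0.05; 0 with edgeR and limma-voom, and 1, ssc-miR-486, with DESeq2), near the 7.05% called and 25.6% under 0.05 unadjusted over the 454 tested. Without S05, ssc-miR-486 was called, lower in black skin by the limma estimate of -2.28 (adjusted p = 0.00924), in a fit that called 1.46% of 480. S05 is its highest black library, so leaving it out widens the difference. With any other library left out ssc-miR-486 was not called (limma, adjusted p from 0.0866 to 0.215). ssc-miR-122 was also lower without S05 but not called, as given above. The part of blood in the level of ssc-miR-122 was not tested.

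The leukocyte list summed to 2382 to 4860 RPM in white and 3087 to 5239 RPM in black skin, with its highest sum in S05, its name miR-223 without a row, and 1 of 5 tested rows called, against 7.05% over all tested: ssc-miR-142-3p, higher in black skin (1.96, limma, adjusted p = 0.0324). edgeR, DESeq2 and limma-voom called 1 of these 5 rows each (1 at an unadjusted limma p under 0.05; median 0.19). The epithelial list summed to 23475 to 34650 RPM in white and 18739 to 25754 RPM in black skin, with 0 of 5 called by any of these 4 tools (1 at an unadjusted limma p under 0.05; median -0.31) and miR-200a, miR-200b, miR-200c, miR-141 and miR-203 without a row. The striated muscle list summed to 678 to 2017 RPM in white and 959 to 1604 RPM in black skin, with 0 of 5 called by limma (1 at an unadjusted p under 0.05; 1, ssc-miR-206, with edgeR and with DESeq2; 0 with limma-voom; median 0.28) and miR-208 without a row. The vascular wall list summed to 44365 to 58091 RPM in white and 96227 to 119952 RPM in black skin, with 3 of 6 called by limma, all higher in black skin (4 at an unadjusted p under 0.05; 1 with edgeR, 2 with DESeq2 and 1 with limma-voom; median 0.65). The 3 vascular calls were ssc-miR-143-3p (limma, adjusted p = 0.00314) and both arms of miR-126, ssc-miR-126-3p and ssc-miR-126-5p (0.0423 each). Arms of the same hairpin are not independent. The counts of these lists stand beside 7.05% called and 25.6% at an unadjusted p under 0.05 over the 454 tested, so that in lists of 4 to 6 rows a count of 0 or 1 is near the background. The call of ssc-miR-142-3p was lost without S03, S05 or S06 (limma, adjusted p = 0.107, 0.112 and 0.116). The vascular calls numbered 1 without S03, S04, S05 or S06, 2 without S07 and 3 without S02. ssc-miR-143-3p was called in each of these fits. ssc-miR-126-3p was called only without S07, and ssc-miR-126-5p and ssc-miR-145-3p only without S02. ssc-miR-206 was called by limma without S02 (-3.57, adjusted p = 0.00209), in a fit that called 41 of 482. S02 is its lowest white library (12.6 RPM), so leaving it out widens the difference. With any other library left out ssc-miR-206 was not called (limma, adjusted p from 0.107 to 0.238). Among the black libraries S05 had the highest sum in the erythroid, leukocyte, striated muscle and other liver, gut and pancreas lists, but not in the epithelial or vascular lists. Over all 6 libraries it was highest in the leukocyte list alone. In the other liver, gut and pancreas list the sums were close, at 5935 RPM in S05 and 5762 RPM in S04. Of these sums ssc-miR-30a-5p, made in many tissues, held 5316 and 5046 RPM. In such bulk samples fewer cells of a type and less RNA per cell cannot be told apart.

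**Figure D4:**
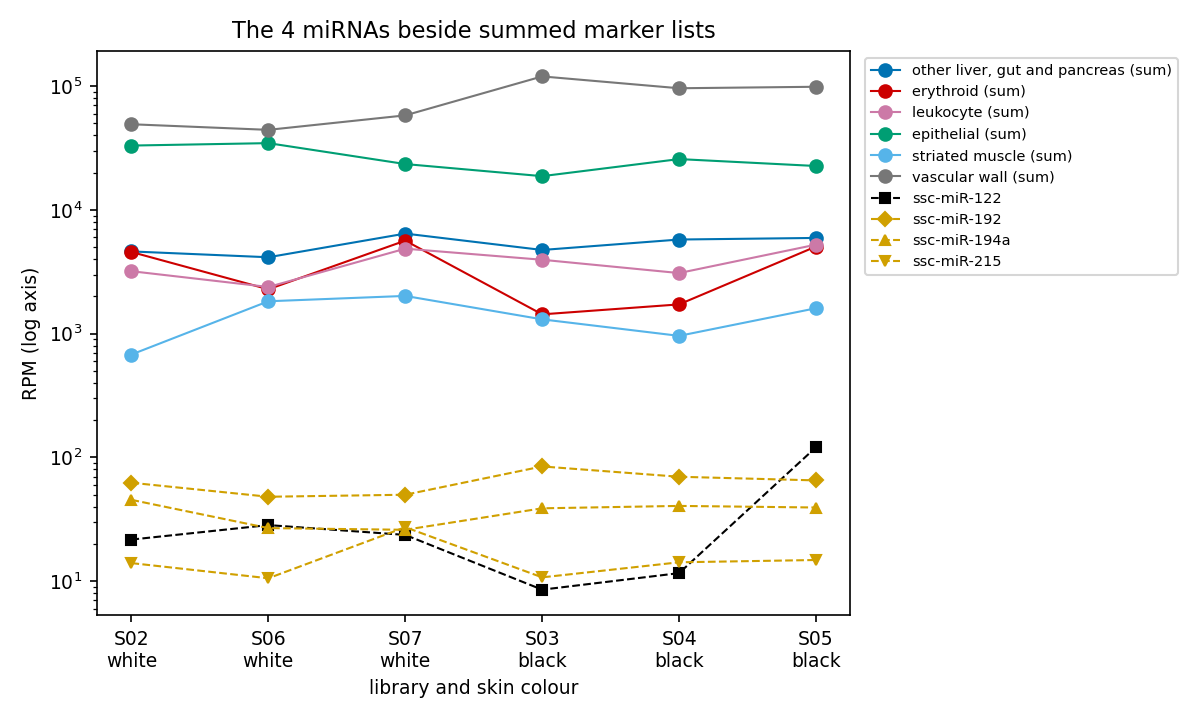
RPM on a log axis for the 4 miRNAs (dashed) and the summed marker lists (solid) in each library, ordered by skin colour, with lines that only join the points. ssc-miR-122 is at 120.7 RPM in S05 alone, whereas the erythroid sum is high in S02, S07 and S05 (4570, 5645 and 5058 RPM).

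Of the 454 tested miRNAs, ssc-miR-122 had the largest excess of S05 over all other libraries, by 2.05 on the log2(RPM + 1) scale (120.7 RPM against 28.4 RPM in the next library, S06). This order was drawn up after its values were seen. ssc-miR-144, an erythroid miRNA, came next with 1.56 (21.2 against 6.49 RPM), followed by ssc-miR-145-5p of smooth muscle with 0.84 (3253 against 1813 RPM). In S07 a predicted miRNA had a larger excess than ssc-miR-122 had in S05, and a named miRNA a slightly smaller one. The largest excesses in S02, S03, S06 and S04 were 1.87, 1.41, 0.99 and 0.81. unconservative_2_262053, a predicted miRNA, exceeded the other libraries by 3.37 in S07 (98.8 against 8.68 RPM), and ssc-miR-7857-3p by 2.02 in the same library. ssc-miR-215 was at place 4 of the excesses in S07, with 0.84, ssc-miR-192 at place 35 in S03, with 0.27, and ssc-miR-194a at place 62 in S02, with 0.16.

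The named miRNAs with the most similar course over the 6 libraries were found by the root mean square difference of log2(RPM + 1), each centred on its own mean, among 238 named miRNAs tested besides the 4. No miRNA followed ssc-miR-122 closely: the nearest were ssc-miR-184 (0.71), ssc-miR-451 (0.87) and ssc-miR-145-5p (0.90), beside a median of 1.21 over the 238. ssc-miR-192 lay nearest to ssc-miR-92b-3p (0.09), ssc-miR-22-5p (0.09) and ssc-miR-24-3p (0.10), with a median of 0.45. ssc-miR-194a lay nearest to ssc-miR-26a (0.13), ssc-miR-361-5p (0.13) and ssc-miR-2411 (0.14), with a median of 0.44. Like ssc-miR-194a, ssc-miR-26a was lower in S06 and S07 (26683 and 29775 RPM) than in the other 4 libraries (45513 to 48638 RPM). ssc-miR-215 lay nearest to ssc-miR-421-3p (0.24), ssc-miR-29c (0.24) and ssc-miR-98 (0.26), with a median of 0.54, and these 3 had their highest value in S07 as well. The distances are descriptions over 6 libraries and depend on how widely each miRNA varied.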

How the data were processed

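Small RNA of pig skin was measured in 6 libraries, 3 white and 3 black by the labels. The authors deposited 1 table of RPM, which was inferred from column totals of 1e+06. The submitters' processing notes list Bowtie, without a version, and build Sscrofa11.1. How reads were counted and filtered is not given in the sources used here. All values (100% in each library) came out as whole reads (tolerance 0.001), so reads were recovered. 1 read is worth 0.0984 to 0.155 RPM. As RPM are shares of a library, abundant miRNAs that change move the rest.

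The main test was trended limma 3.58.1 (R 4.3.3) on log2(RPM + 1), adjusted over the 454 miRNAs kept by filterByExpr of edgeR 4.0.16 (minimum count 10, total 15). A fold change on that scale understates the change of scarce miRNAs. On the recovered reads edgeR called 30 of 454, DESeq2 1.42.0 called 52 and limma called 32 on RPM. Alternatives covered the pseudocount, filter, scaling, tool and each library left out. No 2 libraries were alike within sampling noise (smallest chi-square per degree of freedom 249), and 0 of the 4 miRNAs had a row identical to another. The labels give no shared replicate numbers, so no block was fitted. The 4 miRNAs and all lists were chosen with earlier results of these data known. Named miRNAs are the 4 and their copies, the 3 nearest in course to each and the most abundant of each list. Outside that rule, chosen after values were seen, are the scarce miR-885, miR-216 and miR-217, ssc-miR-31, ssc-miR-206, and those named for spread, excess in 1 library or a call.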

Additional observations from a re-analysis of the deposited data

How the results depend on the processing

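No setting brought any of the 4 miRNAs past the threshold in 16 alternatives each, and DESeq2 gave no p for ssc-miR-122. ssc-miR-192 and ssc-miR-194a were higher in black skin in all 16, by 0.34 to 0.56 and 0.17 to 0.57. ssc-miR-122 (-0.05) turned to 0.12 with a pseudocount of 10, 0.87 with edgeR and 0.83 with DESeq2, and ran from -1.21 (without S05) to 0.63 (without S03) with 1 library left out. ssc-miR-215 (-0.27) ran from -0.54 (without S06) to 0.10 (without S07). The log2 ratio of ssc-miR-194a to ssc-miR-192 (-0.13) ran from -0.23 (without S07) to 0.0049 (without S02), and the ratios to ssc-miR-215 kept their sign in 8 alternatives each, with the lowest values, 0.30 for ssc-miR-192 and 0.07 for ssc-miR-194a, without S07. The spread of ssc-miR-122 within black skin (2.02), examined with alternatives chosen after seeing the data, was 0.29 without S05 and 2.60 without S04. The cause of these changes was not tested. Depth limits ssc-miR-194b-5p and miR-885, which had few reads in each library.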
